A study of Mus musculus with 106 samples.

Results

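The 6 genes described here encode the neurotrophins Bdnf and Ntf3, the neurotrophin receptors Ntrk2 (TrkB), Ntrk3 (TrkC) and Ngfr (p75), and the sorting receptor Sort1 (sortilin). They were found by gene symbol among the 55401 genes (21897 of them protein-coding) of a mouse Huntington's disease (HD) RNA sequencing series. All 6 passed the filter on low counts in every comparison made.

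Neurotrophins are secreted growth factors that are made as larger precursors and cleaved to mature proteins. Mature Bdnf binds TrkB and mature Ntf3 binds mainly TrkC, which are receptor tyrosine kinases that act on neuronal survival and synapses, whereas the precursors bind p75 together with sortilin. Cortical neurons supply the striatum with Bdnf protein by axonal transport, and huntingtin has been tied both to Bdnf transcription and to the transport of Bdnf vesicles.

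The HD mice carried a knock-in allele with an expanded CAG repeat in the huntingtin gene in 1 copy (Hdh Q7/Q200), and the control mice were Hdh Q7/Q7. In the Gad2, PV and vGluT2 lines they were littermates on a 129S4 background at about 9 months of age. The SST line was not described in the same way. In that line 3 of the 5 control IPs came from mice numbered in another series than the 4 HD mice. So did 2 of its 4 control total RNA libraries, and an effect of this was not tested. Mice of both genotypes were heterozygous for RiboTag, an Rpl22 allele that gains an HA tag after Cre recombination, and for a Cre driver. The Gad2-IRES-Cre, vGluT2-IRES-Cre and PV-IRES-Cre lines direct the tag to GABAergic, vGluT2-expressing and parvalbumin neurons, and a line labelled SST was sequenced as well. An IRES-Cre driver also tags cells that expressed it only during development, so an IP reports the whole lineage. Tagged ribosomes were pulled down from the cerebrum (brain without cerebellum and olfactory bulb) or the cerebellum of 1 hemisphere with an HA antibody, and these libraries are called IPs. Each PV library pooled duplicate IPs of 1 mouse. Total RNA came from the same homogenates and held all cell types.

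The control IPs numbered 6 for cerebral Gad2, 6 for PV, 5 for SST, 6 for cerebral vGluT2, 6 for cerebellar Gad2 and 5 for cerebellar vGluT2. The HD IPs numbered 6, 5, 4, 6, 6 and 6 in the same order. Each line and region had 3 or 4 total RNA libraries of each genotype. In all, 106 libraries from 45 mice were read. Library totals ran from 21905221 to 107753586 estimated counts, with a median of 35866725. Levels are given as TMM CPM, which is the count as a share of the library total after edgeR's trimmed-mean scaling. Cerebral and cerebellar IPs of the same line shared mice.

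Marker genes were checked against the label of each IP. The summed level of 5 Purkinje cell markers had a median of 18865.2 TMM CPM in control cerebellar Gad2 IPs, with Itpr1 as the most abundant. The sum of 6 granule cell markers had a median of 12773.5 TMM CPM in control cerebellar vGluT2 IPs, with Cbln3 as the most abundant, and that of 5 striatal projection neuron markers had a median of 4571.4 TMM CPM in control cerebral Gad2 IPs, led by Ppp1r1b. In control PV IPs, the 4 PV interneuron markers summed to 2345.8 to 2934.2 TMM CPM, against 589.9 to 670.0 in total RNA of that line. In control SST IPs, the 3 SST interneuron markers summed to 1041.2 to 1897.9 TMM CPM, against 148.1 to 221.3 in total RNA of that line. These markers were where the labels put them. Slc17a6, the gene for vGluT2 itself, set the vGluT2 IPs apart from the Gad2 IPs of their region, but not from the PV and SST IPs. Control Gad2 IPs held 7.2 to 29.7 TMM CPM of Slc17a6 (cerebral) and 1.82 to 8.96 (cerebellar), below every control vGluT2 IP of the same region. Slc17a6 was at 42.8 to 155.0 TMM CPM in control cerebral vGluT2 IPs and at 22.6 to 109.1 in control cerebellar vGluT2 IPs. It was also at 78.7 to 140.3 in control PV IPs and 75.6 to 127.0 in control SST IPs. The 3 cortical and hippocampal glutamatergic markers, led by Slc17a7, summed to 1987.6 to 2595.9 TMM CPM in control cerebral vGluT2 IPs, and the 3 GABAergic markers, led by Gad1, to 50.7 to 119.6 there against 2254.4 to 3022.0 in control cerebral Gad2 IPs. The vGluT2 IPs are therefore named here by their Cre line. The log2 fold change of Htt, HD against control, lay between -0.73 and -0.32 in the 14 HD comparisons.

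Some libraries stood apart. HD PV replicate 3 held 4416.2 TMM CPM of Purkinje cell markers and 676.3 of granule cell markers, against 578.9 to 720.9 and 69.8 to 99.2 in the other HD PV IPs. Control PV replicate 2 was also high, at 1949.0 and 309.0, against 590.4 to 975.9 and 85.2 to 127.4 in the other control PV IPs. Control cerebral Gad2 replicate 1 had 634.1 TMM CPM of astrocyte markers and 1566.0 of oligodendrocyte markers, above the other 5 libraries of its group (170.5 to 344.1 and 430.5 to 1032.6), and HD cerebral Gad2 replicate 1 was likewise highest in its group (435.3 and 1040.5). In cerebellar total RNA of the vGluT2 line, the HD and control libraries also differed in how levels ran with transcript length, as described with that comparison below. The marker check itself led to an alternative without these 4 cerebral IPs, chosen after seeing the data. With it 0 members were called between HD and control IPs and 31 between IPs and total RNA, as with all libraries, and 16 neighbouring pairs of the level order differed in place of 17. The control mean of Bdnf in cerebral Gad2 IPs was 3.07 TMM CPM in place of 3.45, and of Ngfr in PV IPs 10.3 in place of 10.4.

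Bdnf (ENSMUSG00000048482, chromosome 2, 109674700 to 109727007 on the plus strand, GRCm38) encodes brain-derived neurotrophic factor. Its level was highest in the vGluT2 IPs. Control means were 37.8 ± 7.75 TMM CPM in cerebral vGluT2 IPs (SD, n = 6), 25.1 ± 3.05 in cerebellar vGluT2 IPs (n = 5), 9.03 ± 2.6 in SST IPs (n = 5), 6.74 ± 1.46 in PV IPs (n = 6), 3.45 ± 1.01 in cerebral Gad2 IPs (n = 6) and 2.1 ± 0.7 in cerebellar Gad2 IPs (n = 6). In this order, SST and PV IPs did not differ beyond their spread (exact permutation test on log2 values, adjusted p = 0.177), and each of the other 4 neighbouring pairs did (adjusted p from 0.0144 to 0.0325). This test leaves out that cerebral and cerebellar IPs of a line came from the same mice. Within the mice with both IPs, an alternative chosen after seeing the data, Bdnf was higher in the cerebrum in 5 of 5 mice of the vGluT2 line (exact p = 0.0625) and in 6 of 6 of the Gad2 line (p = 0.0312), the lowest p that 5 and 6 mice allow. Neither of these steps within mice passed once adjusted together with the other pairs. Control cerebral vGluT2 IPs ran from 27.3 to 47.5 TMM CPM with a median of 36.5, and control cerebellar Gad2 IPs from 1.29 to 3.03 with a median of 2.15. The groups at either end of the order were far apart in every library. The 3 cortical and hippocampal glutamatergic markers had control medians of 867.6 TMM CPM in SST, 824.1 in PV and 201.1 in cerebral Gad2 IPs. In cerebral vGluT2 IPs their median was 2306.3. The part of this list in the Bdnf levels of the other cerebral IPs was not tested.

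Ntf3 (ENSMUSG00000049107, chromosome 6, 126101412 to 126166910 on the minus strand) encodes neurotrophin-3. It too was highest in vGluT2 IPs, but with the regions in the opposite order, since the cerebellar vGluT2 IPs were above the cerebral ones. Control means were 10.3 ± 2.05 TMM CPM in cerebellar vGluT2 IPs, 5.41 ± 1.44 in cerebral vGluT2 IPs, 2.49 ± 1.13 in cerebral Gad2 IPs, 1.99 ± 0.362 in PV IPs, 0.806 ± 0.404 in SST IPs and 0.762 ± 0.901 in cerebellar Gad2 IPs (SD, with n as for Bdnf). Cerebral Gad2 and PV IPs did not differ beyond their spread (exact permutation test, adjusted p = 0.519), nor did SST and cerebellar Gad2 IPs (adjusted p = 0.766). The remaining 3 neighbouring pairs differed, with adjusted p from 0.00928 to 0.0162. Ntf3 was higher in the cerebellar than in the cerebral vGluT2 IP in 5 of 5 mice with both (exact p within mice = 0.0625). Control cerebellar Gad2 replicate 5 was at 2.54 TMM CPM and the other 5 libraries at 0.117 to 0.68, and without it the mean of that group was 0.406 ± 0.256. The lowest single library, a control cerebellar Gad2 IP, held 4 counts, so levels at the low end rested on few reads.

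Ntrk2 (ENSMUSG00000055254, chromosome 13, 58806569 to 59133970 on the plus strand) encodes TrkB, the receptor for mature Bdnf. Its levels spread less between cell types than those of the ligands and were high in the interneuron IPs. Control means were 374.3 ± 66.1 TMM CPM in SST IPs, 337.8 ± 20.9 in PV IPs, 285.4 ± 32.2 in cerebral vGluT2 IPs, 274.2 ± 31.7 in cerebral Gad2 IPs, 188.4 ± 28.0 in cerebellar vGluT2 IPs and 187.5 ± 13.7 in cerebellar Gad2 IPs (SD). SST and PV IPs did not differ beyond their spread (exact permutation test, adjusted p = 0.417), nor did cerebral vGluT2 and Gad2 IPs (adjusted p = 0.714) or both cerebellar IPs (adjusted p = 1). The step from PV to cerebral vGluT2 IPs passed the exact permutation test (adjusted p = 0.0232). The step from cerebral to cerebellar Gad2 IPs passed the same exact permutation test (adjusted p = 0.00928), which leaves out the shared mice. Within the 6 mice with both, the exact permutation test gave p = 0.0312 unadjusted. Once adjusted together with the other pairs, this step did not pass within mice. The 7 astrocyte markers had control medians of 562.7 TMM CPM in SST, 488.3 in PV, 238.1 in cerebral Gad2 and 192.4 in cerebral vGluT2 IPs. The 6 oligodendrocyte markers had control medians of 3204.1, 1997.3, 850.4 and 533.9 TMM CPM in the same order, and 5716.5 in total RNA of the SST line. Both lists were thus higher in the interneuron IPs than in the cerebral Gad2 and vGluT2 IPs. For the cerebellum, the control astrocyte medians were 813.7 TMM CPM (Gad2) and 401.9 (vGluT2), and the oligodendrocyte medians 1079.1 and 711.5. By both lists each cerebellar IP was above the cerebral IP of its line, while its Ntrk2 was lower. The part of both lists in the levels of Ntrk2 was not tested. Counts were per gene, so the full-length receptor and the truncated form that lacks the kinase domain could not be told apart.

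Ntrk3 (ENSMUSG00000059146, chromosome 7, 78175959 to 78738012 on the minus strand) encodes TrkC, the main receptor for Ntf3. The cerebellar vGluT2 IPs, highest for Ntf3, were also highest for Ntrk3. Control means were 169.1 ± 22 TMM CPM there, 92.6 ± 14.5 in cerebral vGluT2 IPs, 84.8 ± 12.0 in cerebral Gad2 IPs, 84.0 ± 11.9 in PV IPs, 77.0 ± 15.1 in SST IPs and 53.3 ± 9.78 in cerebellar Gad2 IPs (SD). None of the 3 neighbouring pairs among the 4 cerebral IPs differed beyond the spread (exact permutation test, adjusted p from 0.484 to 0.976). The top and bottom steps of the order did, with adjusted p of 0.00928 and 0.0303. Within the 5 mice with both vGluT2 IPs the cerebellar one was higher in 5 (exact p = 0.0625). Both the highest and the lowest IP level of this receptor were thus in the cerebellum, in IPs of different lines and mice.

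Ngfr (ENSMUSG00000000120, chromosome 11, 95568818 to 95587735 on the minus strand) encodes p75, a receptor of the tumour necrosis factor receptor family that binds all neurotrophins and their precursors. It was highest in the cerebellar Gad2 IPs. Control means were 47.9 ± 10.3 TMM CPM in cerebellar Gad2 IPs, 10.4 ± 2.26 in PV IPs, 5.99 ± 1.33 in cerebral Gad2 IPs, 5.73 ± 0.611 in SST IPs, 2.54 ± 0.523 in cerebral vGluT2 IPs and 2.52 ± 1.63 in cerebellar vGluT2 IPs (SD). The lowest control cerebellar Gad2 IP, at 33.8 TMM CPM, was above the highest control PV IP, at 14.4. Cerebral Gad2 and SST IPs did not differ beyond their spread (exact permutation test, adjusted p = 0.868), nor did the vGluT2 IPs of the 2 regions (adjusted p = 0.777, and 0.625 unadjusted within mice), and the other 3 neighbouring pairs did (adjusted p from 0.00928 to 0.0144). Basal forebrain cholinergic neurons are a known site of p75. The 3 cholinergic markers summed to 12.0 to 26.3 TMM CPM in control PV IPs. In control SST IPs they summed to 16.2 to 31.0, and in control cerebral Gad2 IPs to 12.3 to 21.0. Their part in the Ngfr levels was not tested.

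Sort1 (ENSMUSG00000068747, chromosome 3, 108284082 to 108361511 on the plus strand) encodes sortilin, a sorting receptor that carries Bdnf precursor into secretory vesicles and pairs with p75 at the cell surface. Its level was highest in cerebral vGluT2 IPs and lowest in cerebellar vGluT2 IPs. Control means were 584.8 ± 69.3 TMM CPM in cerebral vGluT2 IPs, 349.1 ± 47.2 in cerebral Gad2 IPs, 339.9 ± 33.3 in PV IPs, 338.6 ± 26.4 in SST IPs, 279.0 ± 38.4 in cerebellar Gad2 IPs and 137.5 ± 12.2 in cerebellar vGluT2 IPs (SD). Cerebral Gad2, PV and SST IPs did not differ beyond their spread (exact permutation test, adjusted p of 0.867 and 1). The other 3 neighbouring pairs differed, with adjusted p from 0.00928 to 0.042. Over all 6 genes, 17 of 30 neighbouring pairs differed in control IPs. With the test within mice for the 2 regions of a line, 11 did. The vGluT2 line has 5 mice with both IPs, which cannot reach a p of 0.05, but this covers only part of the fall. After adjustment over all pairs, the Gad2 line steps of Bdnf and Ntrk2, with 6 mice, were also lost. So was the Sort1 step from SST to cerebellar Gad2 IPs. In HD IPs, 10 of 30 did, and the order was the same as in controls for 2 of the 6 genes.

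**Figure D1:**
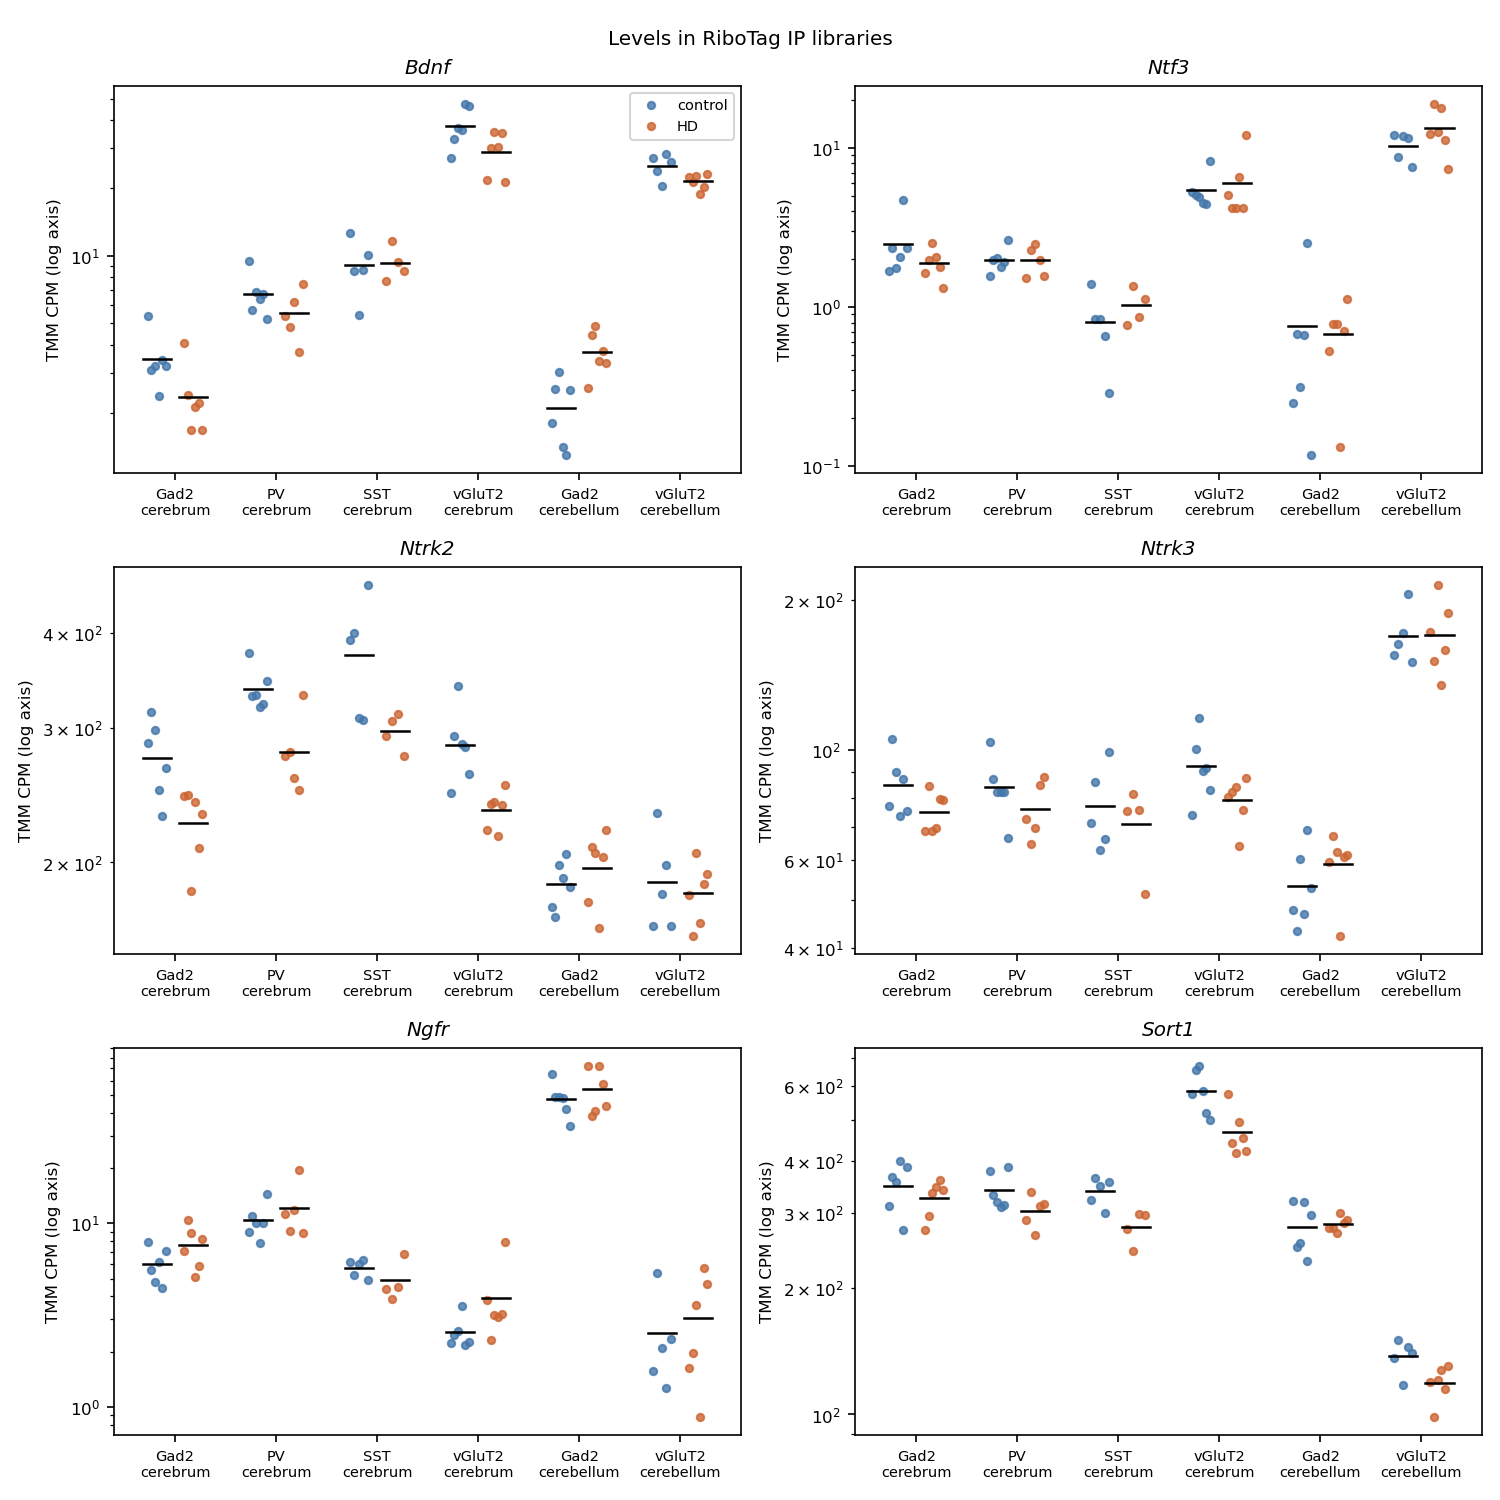
Level of each gene in every RiboTag IP library (TMM CPM, log axis), by cell type and region, with control libraries in blue and HD libraries in orange. Points are libraries, lines are group means, Bdnf and Ntf3 were highest in vGluT2 IPs, and Ngfr in cerebellar Gad2 IPs, where control libraries ran from 33.8 to 65.2.

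Levels can be compared between genes only per length of transcript. Other annotated transcripts lie within some of these loci, on the same strand for Ntrk2 (C630044B11Rik), Ntrk3 (Gm39038 and Gm44607) and Sort1 (Gm43099), and on the opposite strand for these 3 and Bdnf. Counts were taken per gene as deposited, and reads shared with such transcripts were not examined. Per kilobase of exon, the mean level in control cerebral vGluT2 IPs was 77.3 TMM CPM for Sort1, 14.8 for Ntrk2, 6.09 for Bdnf, 3.16 for Ntf3, 3.07 for Ntrk3 and 0.738 for Ngfr. In control cerebellar Gad2 IPs it was 36.9 for Sort1, 13.9 for Ngfr, 9.72 for Ntrk2, 1.77 for Ntrk3, 0.445 for Ntf3 and 0.337 for Bdnf. Without control replicate 5 the last 2 changed places, at 0.237 for Ntf3 and 0.363 for Bdnf, so their order rested on 1 library. Sort1 had the highest level per kilobase in both cell types, whereas Ngfr was the lowest of the 6 in the first and the second highest in the other.

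The comparison of IPs with total RNA of the same region asks in which cell types a transcript was enriched over the tissue. Cerebral Gad2, PV and vGluT2 IPs were set against the cerebral total RNA of these 3 lines, SST IPs against that of the SST line alone, and cerebellar IPs against the cerebellar total RNA of both lines. Of 36 tests, 31 were called at an adjusted p of 0.05 or less (edgeR, with genotype as a covariate). Calls were common among all genes too. In cerebral Gad2 IPs 63.5% of all genes tested were called, in PV IPs 73.2%, in SST IPs 63.4%, in cerebral vGluT2 IPs 63.6%, in cerebellar Gad2 IPs 67.4% and in cerebellar vGluT2 IPs 68.3%. The count of members called therefore says little, and the direction and size of each difference are what the data add.

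Both ligands were enriched in the vGluT2 IPs of both regions. Bdnf was higher in the IPs than in total RNA by a log2 difference of 1.5 ± 0.15 (SE) in cerebral vGluT2 IPs (adjusted p = 4.31e-10) and 1.35 ± 0.15 in cerebellar vGluT2 IPs (adjusted p = 9.86e-09). It was lower in cerebral Gad2 IPs (-1.97 ± 0.19), cerebellar Gad2 IPs (-1.58 ± 0.20) and PV IPs (-0.75 ± 0.17). In SST IPs its difference was -0.08 ± 0.16, which did not pass the test (adjusted p = 0.661). Ntf3 was enriched by 1.38 ± 0.16 in cerebral and 1.41 ± 0.15 in cerebellar vGluT2 IPs. It was depleted in cerebellar Gad2 IPs (-2.54 ± 0.34) and SST IPs (-1.30 ± 0.25). In cerebral Gad2 and PV IPs Ntf3 was at 0.04 ± 0.17 and 0.04 ± 0.14, neither of them called.

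Among the receptors, Ntrk2 was lower in the IPs than in total RNA by log2 differences from -0.88 ± 0.10 in cerebellar vGluT2 IPs to -0.32 ± 0.09 in PV IPs, and its difference of -0.23 ± 0.11 in SST IPs was not called (adjusted p = 0.0743). TrkB is known to be made by astrocytes as well as neurons. The 7 astrocyte markers summed to 128.0 to 326.4 TMM CPM in control cerebral vGluT2 IPs and to 3293.9 to 3764.2 in control total RNA of that line, and their part in the lower Ntrk2 of the IPs was not tested. Ntrk3 went the other way in all 4 cerebral IPs, where it was enriched by 0.26 ± 0.10 to 0.39 ± 0.10, and in cerebellar vGluT2 IPs, by 0.50 ± 0.12. It was depleted in cerebellar Gad2 IPs (-1.0 ± 0.11).

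Ngfr was enriched in cerebellar Gad2 IPs by a log2 difference of 1.33 ± 0.14 (adjusted p = 2.11e-09). It was depleted in cerebellar vGluT2 IPs (-2.95 ± 0.26), cerebral vGluT2 IPs (-1.70 ± 0.19), SST IPs (-0.94 ± 0.12) and cerebral Gad2 IPs (-0.56 ± 0.15), and was not called in PV IPs (0.27 ± 0.15). Without the 4 cerebral IPs that stood apart the PV value was 0.13, also not called. Over all alternatives it ran from -0.09 to 0.33. Sort1 was enriched in cerebellar Gad2 IPs (0.50 ± 0.07) and cerebral vGluT2 IPs (0.28 ± 0.06). It was depleted in cerebellar vGluT2 IPs (-0.74 ± 0.07) and, by -0.32 to -0.24, in the other cerebral IPs. The vGluT2 IPs of the 2 regions thus lay on opposite sides of their tissue for Sort1 while they were on the same side for both ligands. Some of these calls ended under an alternative. With total RNA of the same line only, Ngfr (-0.44) and Ntrk3 (0.25) in cerebral Gad2 IPs and Ntrk3 in cerebral vGluT2 IPs (0.27) were not called, nor were these 3 (-0.28, 0.22 and 0.35) or Sort1 in cerebral vGluT2 IPs (0.15) with mouse as a block. With control libraries only, Ntrk2 in PV IPs (-0.20) and Ntrk3 (0.36) and Sort1 (-0.28) in SST IPs were not called, and without TMM Sort1 in SST IPs (-0.15) was not.

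The HD comparison within each cell type asks whether these transcripts differed between HD and control mice on tagged ribosomes. None of the 36 tests, 6 genes in 6 cell types, was called by edgeR at an adjusted p of 0.05 or less. At an unadjusted p under 0.05 there were 8, DESeq2 called 0 as well, and 22 of the 36 log2 fold changes were below 0. Few genes of any kind were called by edgeR in 5 of these comparisons. The genes called made up 0.0279% of all genes tested in cerebral Gad2 IPs, 0.034% in PV IPs, 0% in SST IPs, 0.00697% in cerebral vGluT2 IPs, 0.0142% in cerebellar Gad2 IPs and 2.11% in cerebellar vGluT2 IPs. In the same order edgeR called 4, 5, 0, 1, 2 and 285 genes, and DESeq2 called 75, 42, 2, 25, 22 and 665. In SST IPs, with 0 of 14689 genes called, 207 had an unadjusted p under 0.05. As these are bulk libraries, fewer cells of a type and less RNA per cell cannot be told apart.

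Bdnf in cerebellar Gad2 IPs was the member with the largest HD to control difference in an IP at an unadjusted p under 0.05. Control libraries ran from 1.29 to 3.03 TMM CPM with a median of 2.15, and HD libraries from 2.58 to 4.87 with a median of 3.57. All 6 HD libraries were above the control median, and the groups overlapped. The log2 fold change was 0.80 ± 0.25, with an adjusted p of 1 by edgeR and 0.356 by DESeq2. In the same HD IPs, 5 of 5 Purkinje cell markers (median log2 fold change -0.132) and 5 of 6 granule cell markers (-0.312) were lower. So were 6 of 7 astrocyte (-0.148), 6 of 6 oligodendrocyte (-0.158) and 6 of 6 microglia markers (-0.363). The 2 genes tested of the SST interneuron list (1.123) and 3 of 4 of the striatal projection neuron list (0.337) were higher. These 2 lists are named for cells of the cerebrum and cannot stand for these in the cerebellum. None of the marker genes was called, and their part in Bdnf was not tested. In cerebral Gad2 IPs the Bdnf values went the other way, from 2.36 to 5.36 TMM CPM (median 3.22) in controls and from 1.67 to 4.08 (median 2.16) in HD, with a log2 fold change of -0.56 ± 0.26 (adjusted p = 0.536). The highest library of each of these cerebral groups was the replicate 1 with high glial markers. The log2 fold change was -0.38 without the control one, -0.77 without the HD one and -0.61 without both, with adjusted p of 0.613, 0.222 and 0.368, and the part of the glial RNA was not tested.

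The difference in HD effect between cell types was itself tested in 4 pairs of IPs. For Bdnf, the HD effect in cerebellar vGluT2 IPs minus that in cerebellar Gad2 IPs was -1.03 ± 0.25, with an adjusted p of 0.135 by edgeR and 0.0159 by DESeq2, so the call depended on the tool. The HD effect on Bdnf in cerebellar Gad2 IPs minus that in cerebral Gad2 IPs was 1.36 ± 0.36, with adjusted p of 0.558 and 0.0969. The fits between regions took the IPs of the same mouse as independent. Under 7 alternatives, mouse as a block among them, this Bdnf value ran from 1.36 to 1.43 and was not called. Of all 24 tests of a difference in HD effect, edgeR called 0 and DESeq2 called 1, and 3 were at an unadjusted p under 0.05. Among all genes, edgeR called 0.107% for cerebellar vGluT2 minus Gad2 IPs, 0% for cerebral vGluT2 minus Gad2 IPs, 0% for Gad2 cerebellum minus cerebrum and 0.323% for vGluT2 cerebellum minus cerebrum. The comparisons with 0 had 209 and 777 genes at an unadjusted p under 0.05, and DESeq2, in fits of its own over all genes, called 1 and 21.

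In cerebral vGluT2 IPs, where Bdnf was highest, control libraries had a median of 36.5 TMM CPM (27.3 to 47.5) and HD libraries a median of 30.3 (21.3 to 35.5). Every HD library was below the control median, and the log2 fold change was -0.38 ± 0.17 (adjusted p = 0.677). In cerebellar vGluT2 IPs the controls were at 27.2, 23.8, 20.5, 28.2 and 26.0 TMM CPM and the HD libraries ran from 18.8 to 23.1. In these cerebellar IPs the 6 granule cell markers, led by Cbln3, summed to 9312.4 to 13574.9 TMM CPM in control and 6789.3 to 8744.6 in HD, with 6 of 6 lower and 3 called, and their part in the members' values was not tested. The groups overlapped in both regions. In PV IPs, control Bdnf ran from 5.23 to 9.42 TMM CPM and HD from 3.72 to 7.51, and in SST IPs from 5.42 to 12.6 and from 7.74 to 11.6.

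Ntrk2 was lower in HD than in control in all 4 cerebral IPs, with a like size in each. In cerebral Gad2 IPs it ran from 230.4 to 314.8 TMM CPM (median 276.5) in controls and from 183.3 to 245.5 (median 236.0) in HD, a log2 fold change of -0.31 ± 0.11 (adjusted p = 0.536), which was -0.30 without both replicates 1. In PV IPs the medians were 331.2 and 276.1 TMM CPM (-0.30 ± 0.09, adjusted p = 0.686), and in cerebral vGluT2 IPs 285.1 and 238.0 (-0.28 ± 0.09, adjusted p = 0.666). None of these passed the adjustment over all genes. In SST IPs the controls were at 391.9, 400.3, 309.0, 307.7 and 462.7 TMM CPM and the HD libraries at 293.2, 306.5, 312.8 and 275.8. The groups overlapped in each of the 4 cell types. Ntrk2 has 19.29 kb of exon. Over all genes, the log2 fold change ran against exon length with a Spearman correlation of -0.24 in cerebral Gad2, -0.02 in PV, -0.30 in SST and -0.29 in cerebral vGluT2 IPs. With each library's length slope as a covariate, chosen after seeing the data, the Ntrk2 log2 fold changes were -0.21, -0.29, -0.26 and -0.19 in that order, none of them called. In cerebellar Gad2 and vGluT2 IPs the log2 fold changes were 0.05 ± 0.11 and -0.02 ± 0.11. In cerebral total RNA, Ntrk2 was at -0.20 in the Gad2, -0.17 in the PV, -0.31 in the SST and 0.26 in the vGluT2 line, none called. Markers of other cell types moved in part with the values of the cerebral IPs. Of the 7 astrocyte markers, 6 were lower in HD cerebral Gad2 IPs (median log2 fold change -0.143), 7 in PV IPs (-0.271) and 6 in cerebral vGluT2 IPs (-0.418), against 2 in SST IPs (0.046), with none called. Their sums, led by Apoe, had control and HD medians of 238.1 and 239.4 TMM CPM in cerebral Gad2, 488.3 and 436.3 in PV, 562.7 and 832.5 in SST and 192.4 and 140.7 in cerebral vGluT2 IPs. All 5 striatal projection neuron markers were lower in HD in each of the 4 cerebral IPs, with median log2 fold changes of -0.581 in Gad2, -0.57 in PV, -0.337 in SST and -0.525 in vGluT2 IPs, and their sum had control and HD medians of 4571.4 and 2999.7 TMM CPM in Gad2 IPs. Of the 6 oligodendrocyte markers, led by Mbp, 6 were lower in PV IPs (sum medians 1997.3 and 1363.7) and 5 in cerebral Gad2 IPs, and of the 6 microglia markers 6 were higher in cerebral Gad2 IPs (median 0.713). None of these was called, and their part in Ntrk2 was not tested. The only region test of this receptor with an unadjusted p under 0.05, Gad2 cerebellum minus cerebrum, gave 0.35 ± 0.15 with an adjusted p of 0.833, so a difference between regions was not shown. That fit leaves out the shared mice, and with mouse as a block Ntrk2 was not called either.

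Sort1 in cerebral vGluT2 IPs ran from 500.0 to 672.2 TMM CPM (median 580.7) in controls and from 417.5 to 574.1 (median 446.7) in HD. All 6 HD libraries were below the control median, and the log2 fold change was -0.32 ± 0.09 (adjusted p = 0.636). In PV IPs it was -0.18 ± 0.08, also not called. In SST IPs the controls were at 323.1, 364.4, 348.2, 300.5 and 356.8 TMM CPM and the HD libraries at 275.8, 244.3, 298.3 and 297.8. This was the only gene and IP comparison of the 36 in which the HD and control groups did not overlap, in a comparison where 0% of all genes were called, and it was not called either (log2 fold change -0.27 ± 0.13, adjusted p = 1). The share of all genes without overlap was not counted.

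Ntf3, Ntrk3 and Ngfr had no HD effect in an IP with an unadjusted p under 0.05. In cerebral vGluT2 IPs Ngfr ran from 2.17 to 3.56 TMM CPM (median 2.36) in controls and from 2.3 to 7.96 (median 3.2) in HD, a log2 fold change of 0.63 ± 0.30 (adjusted p = 0.677). The highest value was the library that was sequenced again. Without it the log2 fold change was 0.29 for Ngfr, and that of Ntf3 went from 0.17 to -0.16. Ngfr in cerebellar Gad2 IPs, where its level was highest, ran from 33.8 to 65.2 TMM CPM in controls and from 38.4 to 72.5 in HD. In PV IPs the HD libraries were at 11.3, 9.06, 19.5, 11.9 and 8.86 TMM CPM, and the highest was replicate 3, the library with the Purkinje cell markers. With it the Ngfr log2 fold change was 0.22, and without it -0.03, whereas without control replicate 2 it was 0.24, and without both it was 0.00. The other members kept their direction in PV IPs without HD replicate 3, with log2 fold changes of -0.19 for Bdnf, -0.04 for Ntf3, -0.26 for Ntrk2, -0.21 for Ntrk3 and -0.19 for Sort1. Without control replicate 2 they were -0.34, -0.02, -0.30, -0.15 and -0.18. The sign of Ntf3, at -0.03 ± 0.18 with all libraries, changed in 5 of 22 alternative fits. None of these was called. Ntrk3 in cerebellar vGluT2 IPs was nearly level, with means of 169.1 ± 22 TMM CPM in controls and 169.8 ± 28.4 in HD.

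**Figure D2:**
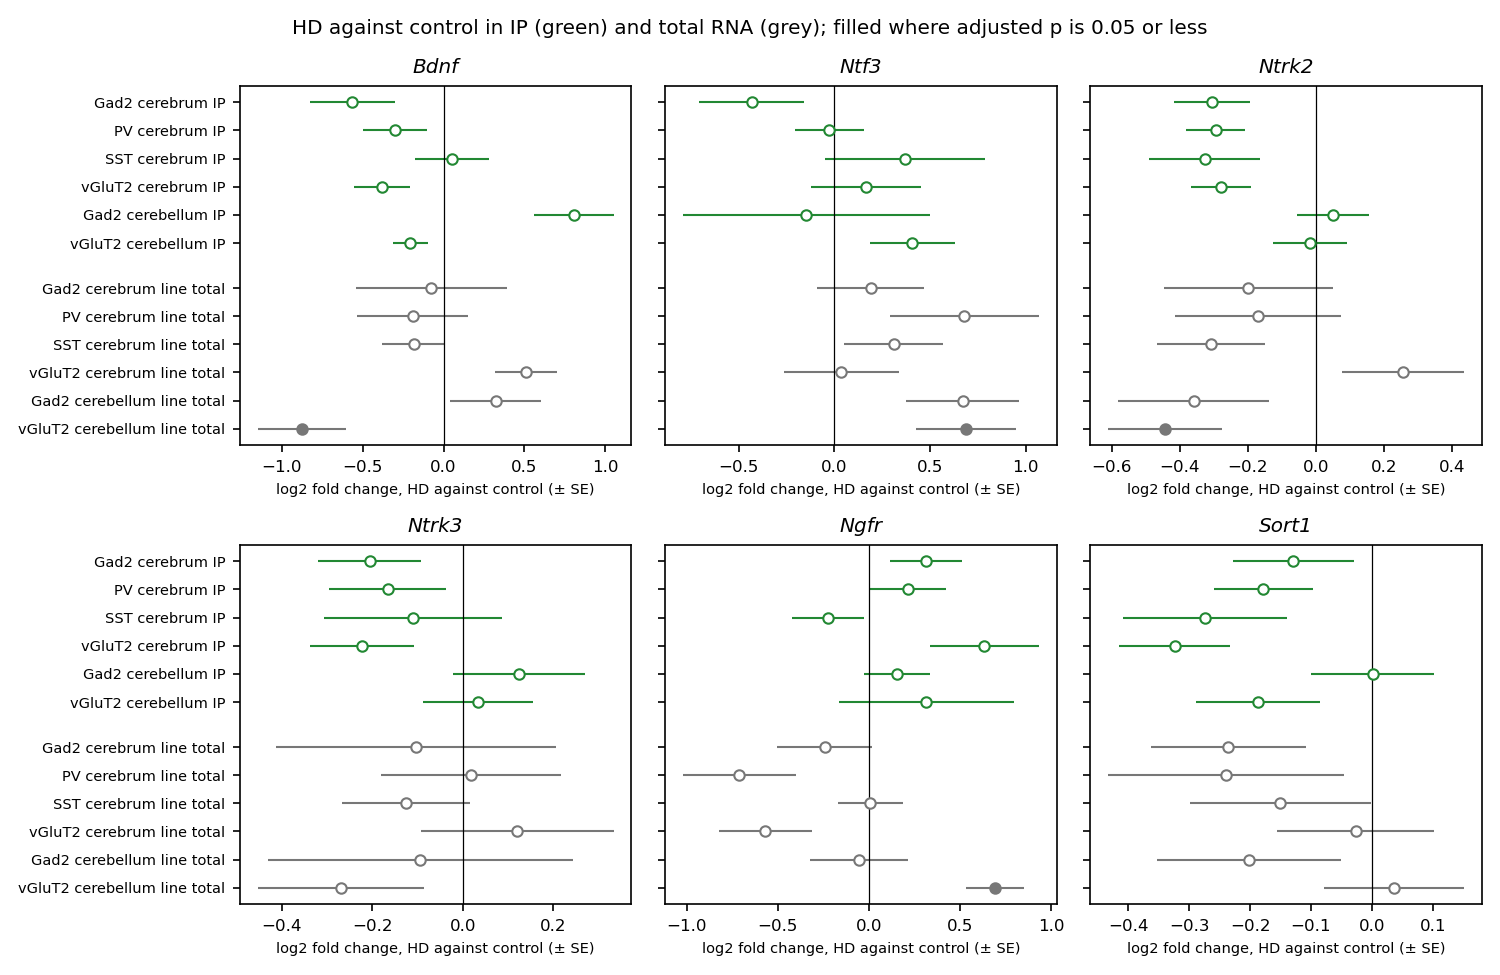
Log2 fold change of HD against control for each gene in the 6 IPs (green) and in total RNA of the 6 line and region groups (grey), with bars of 1 SE and a filled circle where the adjusted p was 0.05 or less. Horizontal scales differ between panels, and filled circles occur only in total RNA of the vGluT2 line cerebellum, for Bdnf, Ntf3, Ntrk2 and Ngfr, with log2 fold changes of -0.88, 0.69, -0.44 and 0.69.

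In total RNA, HD and control were compared within each line and region, which shows the HD effect in the input tissue with 3 or 4 mice a group. Of 36 tests, 4 were called, all in the cerebellum of the vGluT2 line, where 51.7% of all genes tested were called. In total RNA of the cerebral Gad2, PV, SST and vGluT2 lines and of the cerebellar Gad2 line, 0% of all genes were called by edgeR. In that order, 86, 218, 381, 1055 and 316 genes had an unadjusted p under 0.05, and DESeq2 called 1, 3, 15, 19 and 17. A share of 4 in 6 members is near the share of all genes in that comparison, so it is not a result about these genes.

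In cerebellar total RNA of the vGluT2 line, Bdnf was at 12.9, 8.54, 10.3 and 11.8 TMM CPM in control replicates 1 to 4 and at 3.38, 7.59, 6.0 and 9.05 in HD replicates 1 to 4. All 4 HD libraries were below the control median, with replicate 1 the lowest, and the groups overlapped. Bdnf fell by 0.88 ± 0.27 on the log2 scale (adjusted p = 0.0218). The call was lost without control replicate 1 (adjusted p = 0.0668), control replicate 4 (0.0562) or HD replicate 3 (0.0539), and with the level of Xist, which reads the sex of the mice, as a covariate (0.0768). Over all alternatives the adjusted p ran from 0.00502 to 0.717.

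Ngfr was at 16.8, 18.3, 14.3 and 12.3 TMM CPM in the controls and at 31.4, 28.4, 26.9 and 22.1 in the HD libraries. It was the only member of the 6 whose groups did not overlap in this comparison. As 51.7% of all genes tested were called there, the lack of overlap alone says little about Ngfr. Ngfr rose by 0.69 ± 0.16 (adjusted p = 0.00509), and it was called in each of the 8 fits that left out 1 library. Ntf3 was at 2.7, 2.33, 4.52 and 2.14 TMM CPM in controls and 5.26, 5.8, 3.77 and 5.56 in HD, with overlap between control replicate 3 and HD replicate 3. It rose by 0.69 ± 0.26 (adjusted p = 0.0477), and was called in 2 of the 8 fits that left out 1 library, those without control replicate 3 and without HD replicate 3, with adjusted p up to 0.138 in the others.

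Ntrk2 was at 394.3, 309.6, 376.8 and 368.8 TMM CPM in controls and 193.5, 333.7, 331.8 and 309.6 in HD. HD replicate 1 was far below the rest, and the groups overlapped. Ntrk2 fell by 0.44 ± 0.17 (adjusted p = 0.0464). Without HD replicate 1 the log2 fold change was -0.30 (adjusted p = 0.0409), and without HD replicate 2 it was -0.51 (adjusted p = 0.0447). In the other 6 fits that left out 1 library the call was lost, with adjusted p up to 0.124. Ntrk3 (-0.27 ± 0.18) and Sort1 (0.04 ± 0.12) were not called, though Ntrk3 was called without HD replicate 1 (adjusted p = 0.044). With Xist as a covariate Ntf3 (adjusted p = 0.0794) and Ntrk2 (0.0854) were not called, nor with replicate number as a block (0.0833 and 0.0654). Ntf3 was also not called with DESeq2 size factors (0.0503) or without the filter (0.0551), and Ntrk2 not with all gene types (0.0538), and over all alternatives their adjusted p ran from 0.0291 to 0.777 and from 0.033 to 0.397.

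The libraries of this comparison differed along transcript length. Over 14630 genes, the log2 fold change ran against exon length with a Spearman correlation of -0.42, a description across genes, which are not independent replicates. Each library's slope of log2 CPM on log2 exon length lay between 0.093 and 0.203 in controls and between -0.272 and -0.083 in HD. Of the 14 HD comparisons, this was the only one in which the slopes of the genotypes did not overlap. In Gad2 line cerebellar total RNA they ran from -0.078 to 0.213 in controls and from -0.201 to 0.196 in HD. The members that rose, Ntf3 and Ngfr, had 1.71 and 3.45 kb of exon, and those that fell, Bdnf and Ntrk2, had 6.22 and 19.29 kb. Ntrk3, with the longest exon sequence of the 6 at 30.17 kb, was at -0.27, and Sort1, with 7.57 kb, at 0.04, neither of them called. With this slope as a covariate, an alternative chosen after seeing the data, 0 of 14630 genes were called by edgeR, and the log2 fold changes were -0.77 for Bdnf, 0.52 for Ntf3, -1.01 for Ntrk2, 0.92 for Ngfr and 0.14 for Sort1, and 1.02 for Ntrk3, the reverse of its sign without it, none of them called (adjusted p from 0.307 to 0.871). In this comparison the slope and the genotype cannot be told apart.

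Cell markers differed between these groups as well. The 5 Purkinje cell markers summed to 4256.4 to 4888.9 TMM CPM in control and 2704.3 to 3052.1 in HD cerebellar total RNA of the vGluT2 line, with Itpr1 as the most abundant, and 3 of the 5 were called lower. Ngfr, whose highest IP level was in the cerebellar Gad2 IPs, which held these Purkinje cell markers, was higher in the same HD libraries. The 6 granule cell markers, led by Cbln3, summed to 4467.9 to 6340.2 TMM CPM in control and 3977.6 to 5329.4 in HD, with 2 of 6 called lower. The 6 microglia markers, led by Csf1r, summed to 77.0 to 88.8 TMM CPM in control and 133.6 to 146.5 in HD, with 3 of 6 called higher. Some lists are named for cells of the cerebrum and cannot stand for these in the cerebellum. Their leading genes were also found in control cerebellar IPs, with means of 3714.9 TMM CPM for Pvalb and 662.8 for Penk (Gad2) and 1361.5 for Slc17a7 (vGluT2). The paper places Ppp1r1b in Purkinje neurons too. The 4 genes of the PV interneuron list, led by Pvalb, summed to 1979.2 to 2469.3 in control and 2640.9 to 3339.9 in HD, with 2 of 4 called higher. Of the 5 genes of the striatal projection neuron list, led by Ppp1r1b, 3 were called higher (296.6 to 364.1 and 403.1 to 484.1). Other sums did not overlap either but rested on single genes. For the cortical and hippocampal glutamatergic markers (437.5 to 745.4 and 1234.5 to 1391.5) Slc17a7 rose, while the other 2 of 3 were lower and not called. Of the 2 endothelial markers (24.5 to 41.0 and 46.2 to 62.0) Cldn5 rose and the other was level, and of the 2 pericyte markers (52.3 to 69.6 and 39.7 to 49.3) Rgs5 fell and Pdgfrb rose. Genes of many marker lists thus differed, in both directions and within lists. No gene of these lists had a group mean below 0.1 TMM CPM, and the part of these lists in the members' values was not tested.

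**Figure D3:**
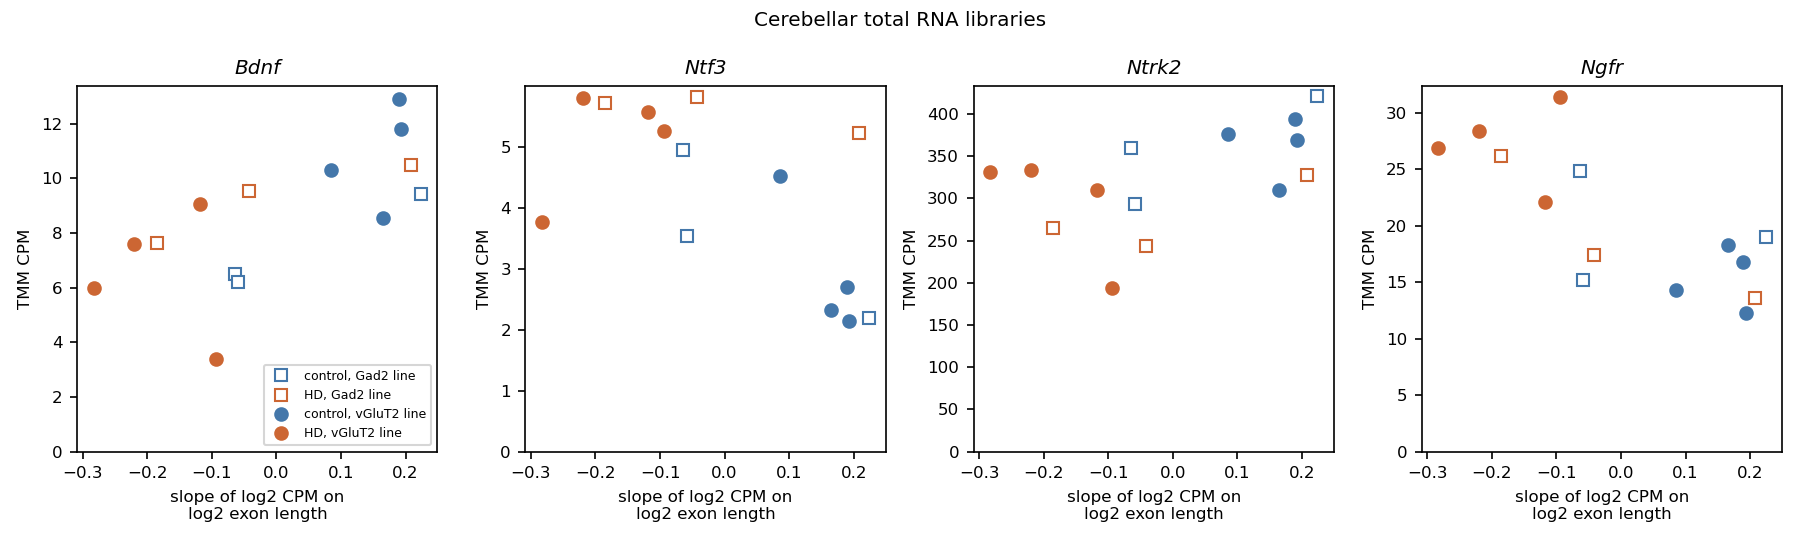
Level of Bdnf, Ntf3, Ntrk2 and Ngfr (TMM CPM) in each cerebellar total RNA library against that library's slope of log2 CPM on log2 exon length, computed over the genes tested in all cerebellar total RNA. With control in blue, HD in orange, the Gad2 line as squares and the vGluT2 line as circles, the circles of the genotypes lie on opposite sides of 0, while the squares spread over both.

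With lines pooled by region (Gad2, PV and vGluT2 in the cerebrum, Gad2 and vGluT2 in the cerebellum) and line as a covariate, 2 of 12 tests were called, both in the cerebellum, where 24.5% of all genes tested were called. Ntf3 rose by 0.68 ± 0.20 (adjusted p = 0.0332) and Ntrk2 fell by 0.40 ± 0.14 (adjusted p = 0.0472). For Ntf3 the Gad2 line libraries of the cerebellum pointed the same way, with 4.95, 2.19 and 3.53 TMM CPM in controls and 5.81, 5.72 and 5.23 in HD, and these groups did not overlap, in a comparison where 0% of all genes were called. Sort1 did not overlap there either, at 221.1, 200.7 and 182.3 in controls and 163.9, 179.7 and 179.8 in HD, and was not called. With 3 libraries a group such separation can arise by chance, and the share of all genes without overlap was not counted. Purkinje cell markers summed to 3980.6 to 4671.0 in the Gad2 line controls and 3074.3 to 3949.2 in HD. Granule cell markers summed to 5094.1 to 6166.0 and 3926.1 to 4656.5, and the part of both lists was not tested. Ntrk2 was at 359.7, 421.7 and 293.8 TMM CPM in the Gad2 line controls and 243.3, 264.4 and 327.9 in HD. In every Gad2 line HD library Ntrk2 was below the control median, and the groups overlapped. Within the Gad2 line alone the log2 fold changes were 0.67 ± 0.30 for Ntf3 and -0.36 ± 0.22 for Ntrk2, neither called. Of 14 fits that left out 1 library of the pooled cerebellum, 4 called Ntf3 (those without control Gad2 line replicate 1 or 3 or HD Gad2 line replicate 1 or 3) and 3 called Ntrk2 (those without control Gad2 line replicate 1 or 3 or HD Gad2 line replicate 3). In the others the adjusted p was up to 0.0724 for Ntf3 and 0.11 for Ntrk2. Ngfr was called without control Gad2 line replicate 1 (adjusted p = 0.0447) or HD Gad2 line replicate 3 (0.0243). The number of genes called ran from 96 to 7408, against 3544 with all libraries. With replicate number as a block neither was called (adjusted p of 0.121 and 0.133), nor with the exon length slope as a covariate (0.356 and 0.552), and Ntrk2 was not called without the filter (0.0639) or with all gene types (0.0591). Bdnf in the pooled cerebellum was at -0.36 ± 0.26 and not called. In the Gad2 line alone it was at 0.32 ± 0.28, opposite in sign to the vGluT2 line.

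In pooled cerebral total RNA no member was called, among 0.141% of all genes called. Ngfr came closest, at -0.50 ± 0.15 with an adjusted p of 0.344 by edgeR and 0.142 by DESeq2. In the vGluT2 line it was at 12.0, 14.6 and 9.6 TMM CPM in controls and 6.83, 10.7 and 5.76 in HD, in the PV line at 12.2, 9.95 and 21.1 and at 10.2, 8.0 and 7.46, and in the Gad2 line at 7.52, 10.8 and 10.8 and at 5.24, 10.2 and 9.29. In each of these 3 lines every HD library was below the control median, and the groups overlapped. In the SST line, left out of the pool, Ngfr was at 10.8, 13.3, 11.5 and 9.02 TMM CPM in controls and 12.3, 9.81 and 11.4 in HD, with 1 of 3 HD libraries below the control median and a log2 fold change of 0.01. With the SST line added to the pool the Ngfr log2 fold change was -0.36 (adjusted p = 0.376). With the exon length slope as a covariate, chosen after seeing the data, the Ngfr log2 fold change was -0.43 with an adjusted p of 0.0274, in a fit that called 402 of 14871 genes in place of 21. Bdnf in cerebral vGluT2 line total RNA was at 8.6, 10.1 and 9.77 TMM CPM in controls and 12.6, 11.7 and 14.1 in HD, which did not overlap, in a comparison where 0% of all genes were called. Groups of 3 libraries can separate by chance, and the share of all genes without overlap was not counted. The Bdnf log2 fold change of 0.51 ± 0.19 was not called (adjusted p = 0.502) and was opposite in sign to that in the cerebral vGluT2 IPs, a difference that was not tested. The log2 fold changes of all genes ran with exon length by a Spearman correlation of 0.41 in this total RNA and -0.29 in the IPs. With the length slope as a covariate those of Bdnf were 0.34 and -0.26, neither called.

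The genes with the control pattern most like each member were found by Pearson correlation of mean log2 levels over the 12 control groups, among 14759 genes. The groups share mice and region, so the values are a description. For Bdnf they were Sidt1 (0.959), Olfm1 (0.95) and Kcnj6 (0.945), and for Ntf3 they were St3gal5 (0.957), Mcu (0.931) and Prkab1 (0.93). For Ntrk2 they were Klhl5 (0.971), Sh3pxd2b (0.967) and Ackr3 (0.967), and for Ntrk3 they included Prox1 (0.967) and Kbtbd11 (0.962). For Ngfr they were Fam83d (0.966), Cotl1 (0.953) and St3gal4 (0.952), and for Sort1 they were Mlip (0.988), Stmn4 (0.988) and Rasd1 (0.986). No gene was named for more than 1 member.

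Genes that act around the neurotrophins were counted by list in the HD IPs. Among all genes, 9.15% had an unadjusted p under 0.05 in cerebral Gad2 IPs, 4.28% in PV, 1.41% in SST, 7.28% in cerebral vGluT2 IPs, and in the cerebellum 2.3% in Gad2 and 15.5% in vGluT2 IPs. Of 204 tests of the 34 Trk adaptor and signalling genes in the 6 IPs, 14 had an unadjusted p under 0.05 and 1 was called, Rapgef1, an exchange factor for Rap1, which rose in cerebellar vGluT2 IPs by 0.54 ± 0.10 (adjusted p = 0.0109). The list's median log2 fold change there was 0.111, against -0.011 for all genes, with 26 genes higher and 8 lower. In the other IPs 17 were higher and 17 lower (cerebral Gad2), 15 and 19 (PV), 14 and 20 (SST), 18 and 16 (cerebral vGluT2) and 18 and 16 (cerebellar Gad2). The part of the lower granule cell markers of HD cerebellar vGluT2 IPs, given above, was not tested. Of 60 tests of the 10 genes of transport with huntingtin, 9 had an unadjusted p under 0.05 and 1 was called, Htt itself, which fell in cerebral vGluT2 IPs by 0.63 ± 0.08 (adjusted p = 0.0444). It was the only gene called there, and 0 genes were called with DESeq2 size factors, no filter, all gene types, replicate number as a block, Xist or the exon length slope, so the call ended under these 6 alternatives. For 4 other lists edgeR called 0 in the 6 IPs. At an unadjusted p under 0.05 there were 6 of 84 tests for the 14 genes of p75 signalling, and 2 of 72 for the 12 regulators of Bdnf transcription. There were 7 of 47 for the 8 genes of the sortilin family and p75 co-receptors, and 5 of 61 for the 12 genes of precursor processing and secretion.

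Among the 11 targets of Trk and activity signalling, such as Arc, Fos and Egr1, edgeR also called 0 in the 6 HD IP comparisons, with 17 of 64 tests at an unadjusted p under 0.05, where all genes had between 1.41% and 15.5% by cell type. Their median log2 fold change was -0.077 in cerebral Gad2 IPs, -0.332 in PV IPs, -0.666 in SST IPs and -0.131 in cerebral vGluT2 IPs, against medians of all genes between -0.018 and 0.008. Of the 11, 6, 9, 11 and 10 were lower in HD. In the same 4 IPs 5 of the 5 striatal projection neuron markers were lower, as given above for Ntrk2, and in pooled cerebral total RNA 5 of 5 (median -0.682), with none called and their part in the activity targets not tested. In the cerebellum the medians of the 10 tested were 0.146 in Gad2 IPs and -0.099 in vGluT2 IPs. In pooled cerebral total RNA 10 of the 11 were lower, with a median of -0.283 against 0.021 for all genes.

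In cerebellar total RNA of the vGluT2 line, 10 Trk adaptor and signalling genes rose and 10 fell, of 34, where 51.7% of all genes were called. Mapk3 (0.88 ± 0.13) and Akt1 (0.66 ± 0.13) were among those that rose, and Braf (-1.92 ± 0.17) and Pik3ca (-1.50 ± 0.13) among those that fell. For p75 signalling 4 rose and 6 fell of 14, and for regulators of Bdnf transcription 4 rose and 6 fell of 12, with Creb1 at -1.68 ± 0.27. For transport with huntingtin 3 rose and 3 fell of 10, for the sortilin family and p75 co-receptors 3 rose and 1 fell of 8, for precursor processing 2 rose and 1 fell of 10 tested, and for activity targets 2 rose and 1 fell of 10 tested. With the exon length slope as a covariate, 0 genes of any kind were called in this comparison. In pooled cerebellar total RNA, where 24.5% of all genes were called, 9 of the 34 Trk genes rose and 4 fell. There, 4 genes of p75 signalling rose and 0 fell, 0 regulators of Bdnf transcription were called, and 3 genes of transport with huntingtin fell and 0 rose. For the sortilin family 2 rose and 2 fell, for precursor processing 1 rose and 1 fell, and for activity targets 1 rose and 0 fell. These counts rested on the fit, since over all genes 3544 were called there, but 9 with replicate number as a block and 73 with the exon length slope as a covariate. In pooled cerebral total RNA, Htt fell by 0.53 ± 0.10 (adjusted p = 0.0443) and no other gene of these lists was called.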

How the data were processed

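The series holds RNA sequencing of RiboTag IPs and total RNA from HD and control mouse cerebrum and cerebellum. The deposited table gives estimated counts per gene, which the authors made with STAR and Salmon on GRCm38.p6 with spike-in and HA tag sequences added, from stranded libraries of paired 100 bp reads, with 3 libraries sequenced again at 150 bp. By their labels all 3 were HD IPs (cerebellar Gad2, PV and cerebral vGluT2). In these comparisons the longer reads thus occurred only in HD. The annotation release was not given. Of 55401 gene identifiers, 55141 matched GENCODE symbols, and 92 spike-ins were left out. Of all values, 8.57% were not whole, and counts were rounded.

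Protein-coding genes with a mean count above 10 in the libraries compared were tested with edgeR 4.0.16 (R 4.3.3, quasi-likelihood, TMM), and Benjamini-Hochberg p-values over all genes tested were called at 0.05 or less. Errors of folds are SE. DESeq2 1.42.0 was an alternative, as were size factors, filters, gene types, blocks by replicate or mouse, Xist, leaving out each library, and, chosen after seeing the data, the exon length slope, level tests within mice and fits without 4 cerebral IPs. Level orders used two-sided exact permutation tests on log2(TMM CPM + 0.5), adjusted over 30 pairs, with scipy 1.17.1. The smallest chi-square per degree of freedom between 2 libraries of a group was 7.9, so no library was a copy of another in its group. Libraries of different groups were not compared in this way.

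Replicate numbers of HD and control were checked for pairing by correlating their residuals over genes. Only in cerebral Gad2 line total RNA did all 3 pairs pass 0.1 (0.38 to 0.9), so groups were taken as unpaired and the block is an alternative. In that total RNA the block called 24 genes, none of them a member.

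Named genes were the 6 members, the listed genes by counts with those called and up to 4 of the highest level, and for each member up to 3 of the most correlated genes. The members and lists were chosen with earlier results of these data known. The fits were tested on simulated data.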

Additional observations from a re-analysis of the deposited data

Results flagged for a closer look

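In 11 of the 90 sets of values tested, each 1 gene in 1 group of 4 to 6 libraries, a single library lay far from the others by the gap between it and its nearest neighbour over the whole range. Chance flags about 1 in 20 groups. The values are in TMM CPM.

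For Bdnf they were control cerebral Gad2 replicate 1 (5.36, with 2.36 to 3.44 in the others) and HD cerebral Gad2 replicate 1 (4.08, with 1.67 to 2.4 in the others). Both libraries also had the highest astrocyte and oligodendrocyte marker sums of their groups, and the part of these in the Bdnf values was not tested.

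For Ntf3 they were control cerebral Gad2 replicate 5 (4.72), control cerebral vGluT2 replicate 6 (8.28), the HD cerebral vGluT2 library that was sequenced again (12.1) and control cerebellar Gad2 replicate 5 (2.54). The last of these also had the highest marker sums of its group for granule cells (1757.3, with 965.3 to 1687.3 in the others), astrocytes (1092.1, with 430.8 to 1039.0) and oligodendrocytes (1479.0, with 713.7 to 1318.3), and the lowest for Purkinje cells (15955.1, with 16259.7 to 20391.1). Without it the Ntf3 log2 fold change of HD against control in cerebellar Gad2 IPs was 0.76, against -0.15 with it, and neither was called. The mean Ntf3 level of its group was 0.406 without it and 0.762 with it. Without the library sequenced again the Ntf3 log2 fold change in cerebral vGluT2 IPs was -0.16, against 0.17 with it.

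For Ntrk3 it was HD cerebellar Gad2 replicate 4 (42.2, with 59.4 to 67.2 in the others). It also had the lowest Purkinje cell marker sum of its group (11800.4, with 15053.3 to 18486.1 in the others) and the lowest granule cell sum (747.5, with 1044.4 to 1469.6). Its sums were the highest for the lists named for PV interneurons (7634.6, with 3752.4 to 6242.2), striatal projection neurons (1574.0, with 828.7 to 1303.0) and SST interneurons (59.1, with 6.63 to 33.1). These lists are named for cells of the cerebrum and cannot stand for these in the cerebellum. This library also had the lowest slope of log2 CPM on log2 exon length (-0.287, with -0.141 to 0.113 in the others). Without it the Ntrk3 log2 fold change was 0.21, against 0.12 with it.

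For Ngfr they were HD PV replicate 3 (19.5, with 8.86 to 11.9 in the others), the library with Purkinje and granule cell markers, control cerebral vGluT2 replicate 4 (3.56), the HD cerebral vGluT2 library that was sequenced again (7.96) and control cerebellar vGluT2 replicate 2 (5.34). The last had the highest marker sums of its group for GABAergic neurons (254.4, with 147.0 to 195.1 in the others), astrocytes (481.2, with 272.5 to 433.6), oligodendrocytes (981.9, with 589.1 to 777.3) and microglia (11.7, with 7.19 to 8.31). Its Purkinje cell sum (1565.5) was close to that of another library (1555.1), and Ngfr was at most 2.35 in the others. Without it the Ngfr log2 fold change in cerebellar vGluT2 IPs was 0.78, against 0.32 with it, and neither was called. Without the library sequenced again the Ngfr log2 fold change in cerebral vGluT2 IPs was 0.29, against 0.63 with it.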

How the results depend on the processing

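For HD against control in the IPs, 0 of 36 tests were called by edgeR, and 0 under each of the 11 alternatives (1 of them DESeq2, and 2, without the re-sequenced libraries or the 4 cerebral IPs apart, refitting only the IPs that held them) and in each of the 67 fits that left out 1 library (0 to 0). In total RNA by line, 4 were called, and 3 to 4 with DESeq2, DESeq2 size factors, no filter, edgeR's filter or all gene types. That count was 1 with Xist as a covariate and 0 with the exon length slope, and ran from 1 to 4 when 1 library was left out. In pooled total RNA, 2 were called, and 1 with no filter, 1 with all gene types and 1 with the exon length slope, where it was Ngfr in the cerebrum. It ran from 0 to 3 when 1 library was left out. The causes were not tested. IPs against total RNA gave 31 calls, and 27 to 32 under the alternatives. For the difference in HD effect between IPs, DESeq2 called 1 against 0 by edgeR, and the level order counted 10 differing pairs in HD IPs against 17 in controls, and 15 to 17 when 1 library was left out. Without TMM 17 pairs differed, and the order was the same for 2 of 6 genes. Within mice, chosen after seeing the data, 11 did.

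With replicate number as a block, 2 of 36 tests in total RNA by line were called, Bdnf and Ngfr, and 0 of 12 in pooled total RNA, where the block gave adjusted p of 0.121 for Ntf3 and 0.133 for Ntrk2.

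Over 50 folds of single members, those between HD and control or of the difference between IPs with an unadjusted p under 0.05 and the called folds of IPs against total RNA, 561 values under alternatives kept direction and call, 65 kept direction and lost the call, 2 kept direction and gained it, and none reversed. Of the 94 other folds, 35 changed sign at least once, such as Ntf3 in HD cerebellar Gad2 IPs (-0.15, from -0.38 to 0.76) and Ngfr in HD PV IPs (0.22, from -0.03 to 0.32). Groups of 3 or 4 libraries and Ntf3 counts as low as 4 limit what the total RNA and the cerebellar Gad2 IPs can show.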
